A study of Mus musculus with 9 samples.

Results

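The syndecans and glypicans examined here were the 9 genes *Sdc1*, *Sdc2*, *Sdc3*, *Sdc4*, *Gpc1*, *Gpc2*, *Gpc3*, *Gpc4* and *Gpc6*, chosen by symbol from the 54534 genes listed in the count matrices. They were read in 9 single-cell RNA-seq libraries of mouse knee cells. The mice carried *Gdf5-Cre;Tom;Pdgfrα-H2BGFP*, in all groups alike. *Gdf5* regulatory sequence drives Cre in the embryonic joint interzone, so that tdTomato (Tom) permanently marks the descendants of those cells (the *Gdf5* lineage), while a nuclear GFP reports current activity of the *Pdgfrα* promoter, a fibroblast marker. Live cells were released with collagenase and sorted as Tom+ or as Tom-GFP+, that is *Pdgfrα*-expressing cells outside the *Gdf5* lineage. There were 2 Tom+ and 1 Tom-GFP+ libraries at steady state, from mice of 11 weeks, and 4 Tom+ and 2 Tom-GFP+ libraries from mice of 12 weeks, taken 6 days after joint surface injury, a full-thickness scratch of the trochlear cartilage made through an arthrotomy. Age and surgery therefore moved with injury and cannot be told apart from it. The format of the deposited gene list also ran with injury: Tom+ injured replicate 1 and the 3 libraries at steady state had the older one, and the other 5 injured libraries the newer one. The study counts as many mice as libraries in each group and describes the Tom-GFP+ mice as matched, but the sources used here do not say which Tom+ library shares a mouse with which Tom-GFP+ library. Tests that use both sorts therefore treated libraries that may share a mouse as independent.

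Syndecans and glypicans are the main families of cell-surface proteoglycans that carry heparan sulfate, a long sulfated sugar chain. Syndecans cross the membrane, have a short cytoplasmic tail that binds scaffold proteins and the cytoskeleton, and are shed by metalloproteinases. Glypicans are held to the outer face of the cell membrane by a lipid (GPI) anchor. Through their chains both families bind fibroblast growth factors, Wnts, hedgehogs, bone morphogenetic proteins, chemokines and matrix proteins, and act as co-receptors for them. In joints, heparan sulfate proteoglycans are known from cartilage and growth plate, where they shape hedgehog and growth factor gradients, and *Sdc4* has been studied in cartilage breakdown.

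The matrices held counts of unique molecular identifiers (UMIs), 1 for each captured molecule, read from the 5′ end of transcripts and therefore not scaled by transcript length. Over the 4788 cells kept, *Sdc2* was the most abundant with 30704 UMIs (84.1% of cells with at least 1 UMI), followed by *Sdc4* with 11602 UMIs (69.4%), *Sdc1* with 4717 (44.6%), *Sdc3* with 2566 (27.6%), *Gpc1* with 2433 (28.4%), *Gpc4* with 2012 (29.7%), *Gpc3* with 1384 (13.7%) and *Gpc6* with 743 (13.1%). *Gpc2*, best known from the developing nervous system, had 15 UMIs in all, and was too low to test in every comparison. The syndecans thus made up most of the counted molecules, and each glypican was carried by a minority of cells.

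In the GRCm38 annotation, *Sdc1* lies at chr12:8771323-8793715, *Sdc2* at chr15:32920723-33034935, *Sdc3* at chr4:130792537-130826319 and *Sdc4* at chr2:164424247-164443887. *Gpc1* lies at chr1:92831645-92860779, *Gpc2* at chr5:138273655-138280005 and *Gpc6*, the longest member, at chr14:116925315-117976544. *Gpc4* (chrX:52053021-52165252) and *Gpc3* (chrX:52272426-52613950) are neighbours on the same strand, with 107.2 kb between them. Genes annotated on the opposite strand overlap *Sdc3* (*Gm12970*, *Gm26716*), *Gpc1* (*Ankmy1*, *Gm29480*, *Gm29481*), *Gpc3* (*A630012P03Rik*, *Gm14582*) and *Gpc6* (*Mir6239*). On the same strand, *Mir149* overlaps *Gpc1*, *Gm43720* overlaps *Gpc2*, and *Mir6384* and *Mir717* overlap *Gpc3*. The strand setting of the counting is not given in the sources used here, so reads shared with these neighbours are uncertain. Promoter sequences from RefSeq (GRCm38.p6) were matched for 6 of the 9 members (*Sdc1*, *Sdc3*, *Sdc4*, *Gpc2*, *Gpc3* and *Gpc4*). The 250 bases before the RefSeq start are shown for *Sdc1*, *Sdc3* and *Gpc3*, which of these 6 were called in the most comparisons that follow, and for *Gpc4*, the neighbour of *Gpc3* that often did not follow it. They are written 5′ to 3′ on the gene's strand (plus for *Sdc1* and *Sdc3*, minus for *Gpc3* and *Gpc4*), with each GC box, GGGCGG or its reverse complement CCGCCC, in capitals.
Sdc1, chr12:8771146-8771395: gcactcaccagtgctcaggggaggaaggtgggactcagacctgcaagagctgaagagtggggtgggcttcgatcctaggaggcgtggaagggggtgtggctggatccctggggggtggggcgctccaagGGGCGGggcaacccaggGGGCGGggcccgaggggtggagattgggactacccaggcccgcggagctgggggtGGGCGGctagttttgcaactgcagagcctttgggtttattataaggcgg
Sdc3, chr4:130792287-130792536: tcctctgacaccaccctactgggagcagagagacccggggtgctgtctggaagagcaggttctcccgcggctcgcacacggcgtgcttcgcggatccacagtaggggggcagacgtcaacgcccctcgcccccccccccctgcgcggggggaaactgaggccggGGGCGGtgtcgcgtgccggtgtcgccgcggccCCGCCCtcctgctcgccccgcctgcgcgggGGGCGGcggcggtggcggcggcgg
Gpc3, chrX:52613975-52614224: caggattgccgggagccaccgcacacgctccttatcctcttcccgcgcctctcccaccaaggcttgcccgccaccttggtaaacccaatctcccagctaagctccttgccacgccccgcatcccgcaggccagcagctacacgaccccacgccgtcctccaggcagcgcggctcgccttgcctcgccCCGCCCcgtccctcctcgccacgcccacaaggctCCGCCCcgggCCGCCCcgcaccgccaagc
Gpc4, chrX:52164924-52165173: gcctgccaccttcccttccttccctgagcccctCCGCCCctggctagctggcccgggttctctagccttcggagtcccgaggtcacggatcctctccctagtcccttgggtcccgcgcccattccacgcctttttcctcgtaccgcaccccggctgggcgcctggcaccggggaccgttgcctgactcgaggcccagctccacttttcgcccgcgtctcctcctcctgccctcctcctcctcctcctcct
All 6 matched promoters held at least 1 GC box, from 1 in *Gpc4* to 4 in *Sdc4*, against 32.7% of the 32851 RefSeq promoters of the same length. Their GC content was 66.0% to 76.4%, against a median of 52.4% over those promoters, and the GC box is itself made of G and C. None of the 6 held the AP-1 letters TGANTCA, which 6.75% of all promoters held, and CCAAT or ATTGG, held by 33.8% of all, was found in *Sdc1*, *Gpc2* and *Gpc3*. These matches describe letters in 1 window only.

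Cells were assigned to classes by fixed marker genes, none of them a member. Of the 4788 cells, 3958 fell into a class, 762 into none, and 68 that passed the gates of more than 1 lineage were left out. There were 1881 sublining fibroblasts, with *Cd34*, at least 4 of *Thy1*, *Cd34*, *Pdgfra*, *Ly6c1* and *Mfap5*, and at most 3 lining markers. Of these, 313 carried the universal fibroblast markers *Dpp4* and *Pi16*. The 665 lining fibroblasts are the fibroblast-like synoviocytes that face the joint cavity. They carried at least 5 of *Prg4*, *Clic5*, *Tspan15*, *Htra4*, *Itga6* and *Col22a1*. A further 191 cells were *Prg4*+ without the lining markers *Clic5* and *Tspan15*, and 520 sublining-like cells were *Lrrc15*+ *Adam12*+, all of them from injured libraries. Smaller classes were tenocyte-lineage (234 cells), osteoblast-lineage (150), immune (108), mural (100, the cells that wrap small vessels) and chondrocyte-lineage (76). The libraries held 2866464 to 15033902 UMIs, with a median of 8050 to 18570 per kept cell. No pair shared more than 2 cell barcodes. As a check of the labels, tdTomato in sublining cells was 2.16 to 6.18 CPM in the 3 Tom-GFP+ libraries and 293 to 661 CPM in the 6 Tom+ ones. CPM, the unit of all levels that follow, is the number of UMIs of a gene per 1000000 UMIs when the cells of 1 class in 1 library are added up, for libraries with at least 10 such cells, and n counts libraries.

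Among the syndecans, *Sdc2* belonged above all to the lining. *Sdc2* (syndecan-2), the syndecan typical of mesenchymal cells, reached 1194 ± 269 CPM in lining fibroblasts (SD, n = 8), 668 ± 204 in *Prg4*+ *Clic5*- cells (n = 6) and 593 ± 164 in osteoblast-lineage cells (n = 5). Universal and other sublining fibroblasts followed with 393 ± 97.1 (n = 8) and 366 ± 118 CPM (n = 9), then *Lrrc15*+ *Adam12*+ cells with 290 ± 104 (n = 6), tenocyte-lineage cells with 191 ± 44.1 (n = 8), mural cells with 175 ± 33.9 (n = 3) and chondrocyte-lineage cells with 107 ± 65.8 (n = 4). The lining stood above the next class by more than 1 SD of either, whereas the 2 kinds of sublining fibroblast, and the tenocyte-lineage and mural cells, did not differ beyond their spread.

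*Sdc4* (syndecan-4), a component of focal adhesions, belonged to cartilage cells. It was at 1177 ± 398 CPM in chondrocyte-lineage cells (SD, n = 4), between 725 and 1573 in the single libraries. Every other class was far lower, from 240 ± 61.5 CPM in tenocyte-lineage cells (n = 8) and 208 ± 51.1 in *Prg4*+ *Clic5*- cells (n = 6) through 172 ± 31.6 in the lining (n = 8) and 157 ± 47.4 in sublining fibroblasts without universal markers (n = 9) to 48.0 ± 18.1 in mural cells (n = 3). The classes between tenocyte-lineage and osteoblast-lineage cells (128 ± 41.1, n = 5) overlapped in their spread.

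*Sdc1* (syndecan-1), better known from epithelia and plasma cells, was highest in mural cells, at 191 ± 58.6 CPM (SD, n = 3). Next came *Prg4*+ *Clic5*- cells with 114 ± 55.0 (n = 6), *Lrrc15*+ *Adam12*+ cells with 86.0 ± 23.5 (n = 6), tenocyte-lineage cells with 84.8 ± 40.2 (n = 8), lining with 78.3 ± 23.1 (n = 8) and osteoblast-lineage cells with 74.5 ± 54.0 (n = 5), classes that did not differ beyond their spread. Universal fibroblasts were the lowest of the connective tissue classes with 22.6 ± 11.7 CPM (n = 8).

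*Sdc3* (syndecan-3), known from neural tissue and from developing cartilage, was low in sublining fibroblasts and high in lining and skeletal cells. It measured 108 ± 49.5 CPM in osteoblast-lineage (SD, n = 5), 102 ± 43.4 in chondrocyte-lineage (n = 4) and 95.7 ± 14.9 in lining cells (n = 8), and these 3 classes could not be separated by their spread. At the other end were sublining fibroblasts without universal markers with 12.0 ± 8.37 CPM (n = 9) and universal fibroblasts with 4.74 ± 4.30 (n = 8).

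**Figure D1:**
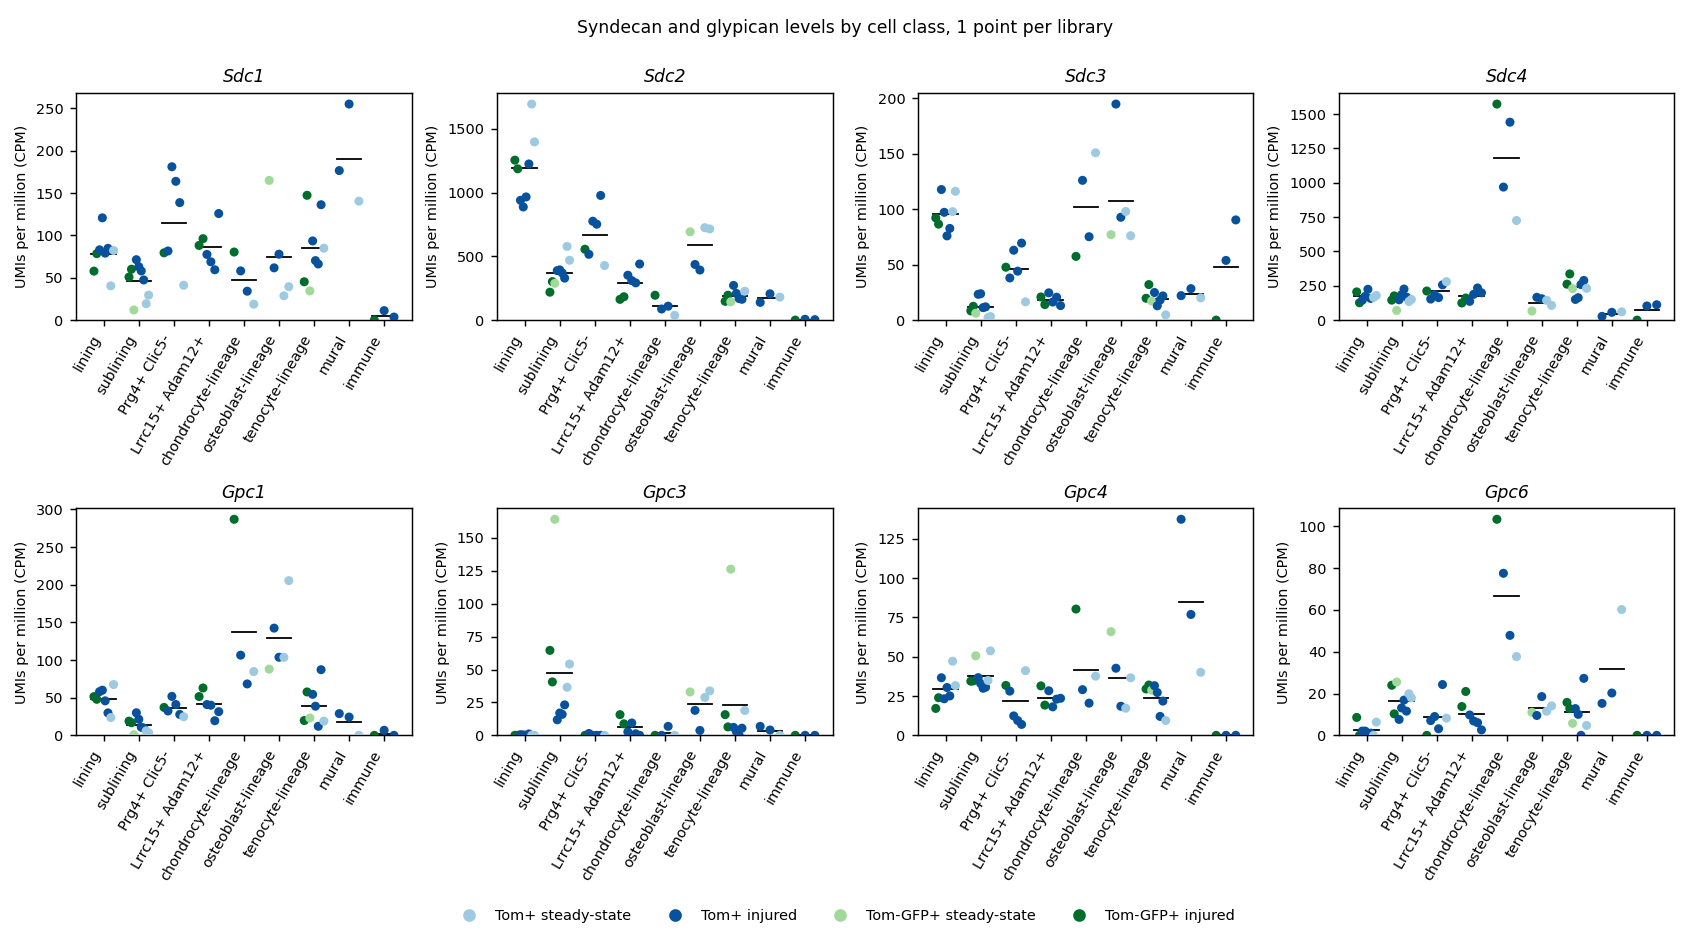
Level of members (CPM) by cell class. Each point is 1 library with at least 10 cells of the class, and the horizontal bar is the mean over libraries. *Sdc2* is highest in the lining, *Sdc4* in chondrocyte-lineage cells, *Sdc1* and *Gpc4* in mural cells, and *Gpc3* in sublining fibroblasts.

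Among the glypicans, *Gpc1* was highest in the skeletal classes and *Gpc3* in sublining fibroblasts. *Gpc1* (glypican-1), a widely expressed co-receptor of fibroblast growth factors, measured 137 ± 102 CPM in chondrocyte-lineage cells (SD, n = 4) and 129 ± 47.4 in osteoblast-lineage cells (n = 5). It was at 48.0 ± 15.0 in the lining (n = 8), 41.0 ± 15.2 in *Lrrc15*+ *Adam12*+ cells (n = 6), 13.9 ± 9.96 in sublining fibroblasts without universal markers (n = 9) and 5.65 ± 5.85 in universal fibroblasts (n = 8). *Gpc3* (glypican-3), an inhibitor of hedgehog signalling and growth whose loss causes an overgrowth syndrome, had another order of classes.

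*Gpc3* was at 76.4 ± 39.9 CPM in universal fibroblasts (SD, n = 8) and 44.8 ± 55.2 in other sublining fibroblasts (n = 9), classes whose libraries overlapped. The mean of the other sublining fibroblasts was raised by the Tom-GFP+ steady-state library, at 186 CPM against 8.29 to 53.6 in the rest. Osteoblast-lineage cells had 23.7 ± 12.6 (n = 5), and tenocyte-lineage cells 22.7 ± 42.3 (n = 8), a mean raised by the Tom-GFP+ steady-state library at 126 CPM. In the lining *Gpc3* was at 0.237 ± 0.382 CPM (n = 8), from 4 UMIs in all. In libraries with at least 10 cells of the class, *Prg4*+ *Clic5*- and chondrocyte-lineage cells held 1 UMI each. In those libraries these 3 classes therefore sat at the limit of detection for *Gpc3*. The Tom-GFP+ steady-state library, with fewer cells, held 4 UMIs in 5 *Prg4*+ *Clic5*- cells and 2 in 7 chondrocyte-lineage cells.

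*Gpc4* (glypican-4), which takes part in Wnt and fibroblast growth factor signalling, was the most even member. Mural cells had 84.8 ± 49.2 CPM (SD, n = 3), and the other connective tissue classes lay between 21.6 ± 13.98 in *Prg4*+ *Clic5*- cells (n = 6) and 41.9 ± 26.6 in chondrocyte-lineage cells (n = 4), with overlapping spreads. *Gpc6* (glypican-6), which acts in long bone growth, measured 66.6 ± 29.8 in chondrocyte-lineage cells (n = 4), 23.4 ± 11.8 in universal fibroblasts (n = 8), 15.2 ± 5.43 in other sublining fibroblasts (n = 9) and 2.63 ± 3.13 in the lining (n = 8). *Gpc2* had a total of 3 UMIs in mural cells and 4 in sublining fibroblasts, and none in lining, chondrocyte-lineage, osteoblast-lineage, universal or immune cells.

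Both the mix of family members and their summed level differed between classes. *Sdc2* supplied 76.9 ± 5.06% of all syndecan UMIs in the lining (SD, n = 8) and 63.3 ± 9.93% in sublining fibroblasts (n = 9). In chondrocyte-lineage cells *Sdc4* supplied 81.3 ± 4.27% (n = 4), and in mural cells *Sdc1* and *Sdc2* supplied 43.3 ± 7.28% and 40.3 ± 4.07% (n = 3). Among glypican UMIs, *Gpc1* supplied 59.0 ± 11.8% in the lining (n = 8) and 63.6 ± 11.1% in osteoblast-lineage cells (n = 5), while *Gpc3* supplied 51.9 ± 8.82% in universal fibroblasts (n = 8). Leaving out immune cells (2.24 ± 3.88 CPM of glypicans and 128 ± 112 of syndecans, n = 3), the summed glypican level ranged from 66.4 ± 8.41 CPM in *Prg4*+ *Clic5*- cells (n = 6) to 247 ± 152 in chondrocyte-lineage cells (n = 4), and the summed syndecan level from 438 ± 96.1 in mural cells (n = 3) to 1540 ± 252 in the lining (n = 8).

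**Figure D2:**
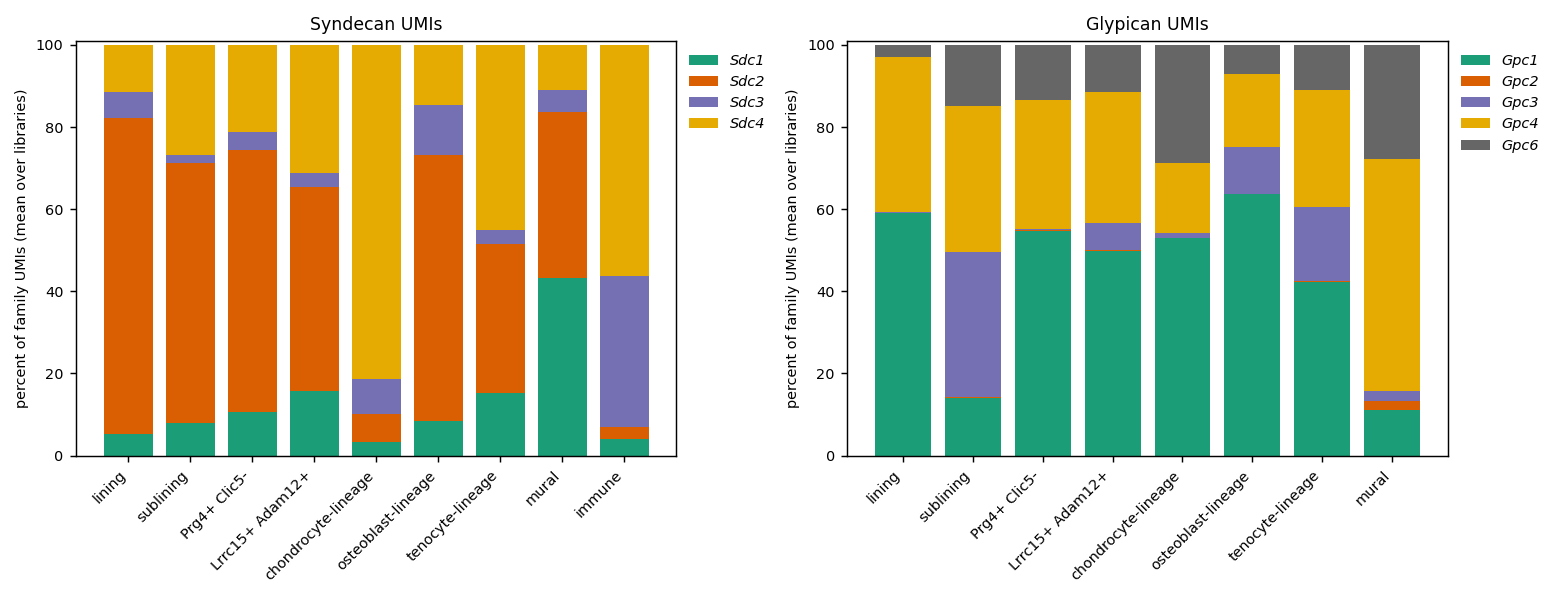
Mean percent of syndecan UMIs and of glypican UMIs that each member supplied, by class (stacked bars from 0 to 100%, mean over libraries). *Sdc2* fills most of the syndecan bar in the lining and *Sdc4* in chondrocyte-lineage cells. *Gpc1* fills 59.0% of the glypican bar in the lining and 49.8% in *Lrrc15*+ *Adam12*+ cells.

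Free RNA in the droplets was checked in immune cells, which are not known for *Sdc2* or for the glypicans. *Sdc2* was found in 5 of 108 immune cells (4.63%, exact Clopper-Pearson 95% interval 1.52 to 10.5%) and in 664 of 665 lining cells (99.8%, 99.2 to 99.996%), at median depths of 8390 and 17538 UMIs per cell. With each cell thinned to 5000 UMIs, which left out 31 immune and 8 lining cells, the shares were 1.3% and 96.5%. *Gpc3*, *Gpc4* and *Gpc6* were found in 0 of 108 immune cells, with an upper bound of 3.36% on the same interval, against 24.8% of sublining cells for *Gpc3* (22.8 to 26.8%, or 16.3% of thinned cells, 143 left out). The lining share for *Gpc3* was 3 of 665 cells (0.451%, 0.0931 to 1.31%). With so few immune cells, 48 and 24 of them from Tom+ injured replicates 3 and 4, that share could not be told apart from free RNA. These intervals cover counting error only.

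The first comparison asked how the lining, the inner layer of the synovium, differed from the sublining beneath it, in the 6 Tom+ libraries with each library as its own control. The lining carried more of 3 syndecans and of *Gpc1* and almost no *Gpc3* or *Gpc6*. *Sdc2* was at 1695 and 1398 CPM in the lining of the 2 steady-state libraries and at 940, 888, 966 and 1225 in that of the 4 injured ones, against 578 and 470 and then 388, 394, 370 and 330 in the sublining of the same libraries. The lining was higher in every library and the classes did not overlap. The log2 fold change was 1.29 (SE 0.10, adjusted p = 2.46e-06, edgeR quasi-likelihood test with Benjamini-Hochberg adjustment over all genes, as for all adjusted p-values here).

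*Sdc3* was at 97.7 and 116 CPM in steady-state lining and at 118, 97.1, 75.9 and 82.6 in injured lining, against 2.15 and 3.19 and then 23.2, 23.8, 11.2 and 11.9 in the sublining. This was a log2 fold change of 2.78 (SE 0.32, adjusted p = 3.71e-05), again with no overlap. *Gpc1* was 23.6 and 67.5 CPM at steady state and 58.0, 59.99, 45.8 and 29.8 after injury in the lining, against 5.91 and 3.59 and then 29.96, 21.3, 10.8 and 9.70 in the sublining, and was higher in the lining of each of the 6 libraries (log2 fold change 1.65, SE 0.28, adjusted p = 0.00088). *Sdc1* differed less, by 0.59 on the log2 scale (SE 0.14, adjusted p = 0.00774).

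*Gpc3* marked the opposite side. The lining of the Tom+ libraries held 4 UMIs of *Gpc3* and their sublining 363, so that the summed level was 69.8-fold higher in the sublining, with a counting interval of 27.0 to 258 (fitted log2 fold change -5.59, SE 0.37, adjusted p = 5.01e-07). *Gpc6* was lower in the lining by a log2 fold change of -3.01 (SE 0.34, adjusted p = 3.96e-05), at 0 to 6.33 CPM against 7.60 to 19.9. *Sdc4* (-0.14, adjusted p = 0.261) and *Gpc4* (-0.37, adjusted p = 0.0864) did not pass, although *Gpc4* did with classes taken from clusters (-0.63) and without cycling cells.

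In all, 4 members were higher and 2 lower of 8 tested, where 31.2% of the 9659 genes tested were called (14.5% higher and 16.7% lower). The median log2 fold change of the members was 0.23, beside -0.01 over all genes. Of the 27 tested genes of the wider heparan sulfate pathway, a list of 41, 5 were higher and 10 lower in the lining. Those with the largest differences were *Sulf2*, a sulfatase that removes 6-O-sulfate from the chains (-1.70), *Col18a1*, a basement membrane proteoglycan (-1.40), *Tgfbr3*, betaglycan (-1.09), and the sheddase *Adam10* (1.03, all log2). Of the 6 calls only that of *Sdc1* was lost under an alternative, with stricter gates that asked for 1 more marker (adjusted p = 0.0794). In steady-state libraries alone the log2 fold changes were wider, at 4.996 for *Sdc3*, 3.11 for *Gpc1* and 1.09 for *Sdc1*.

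**Figure D3:**
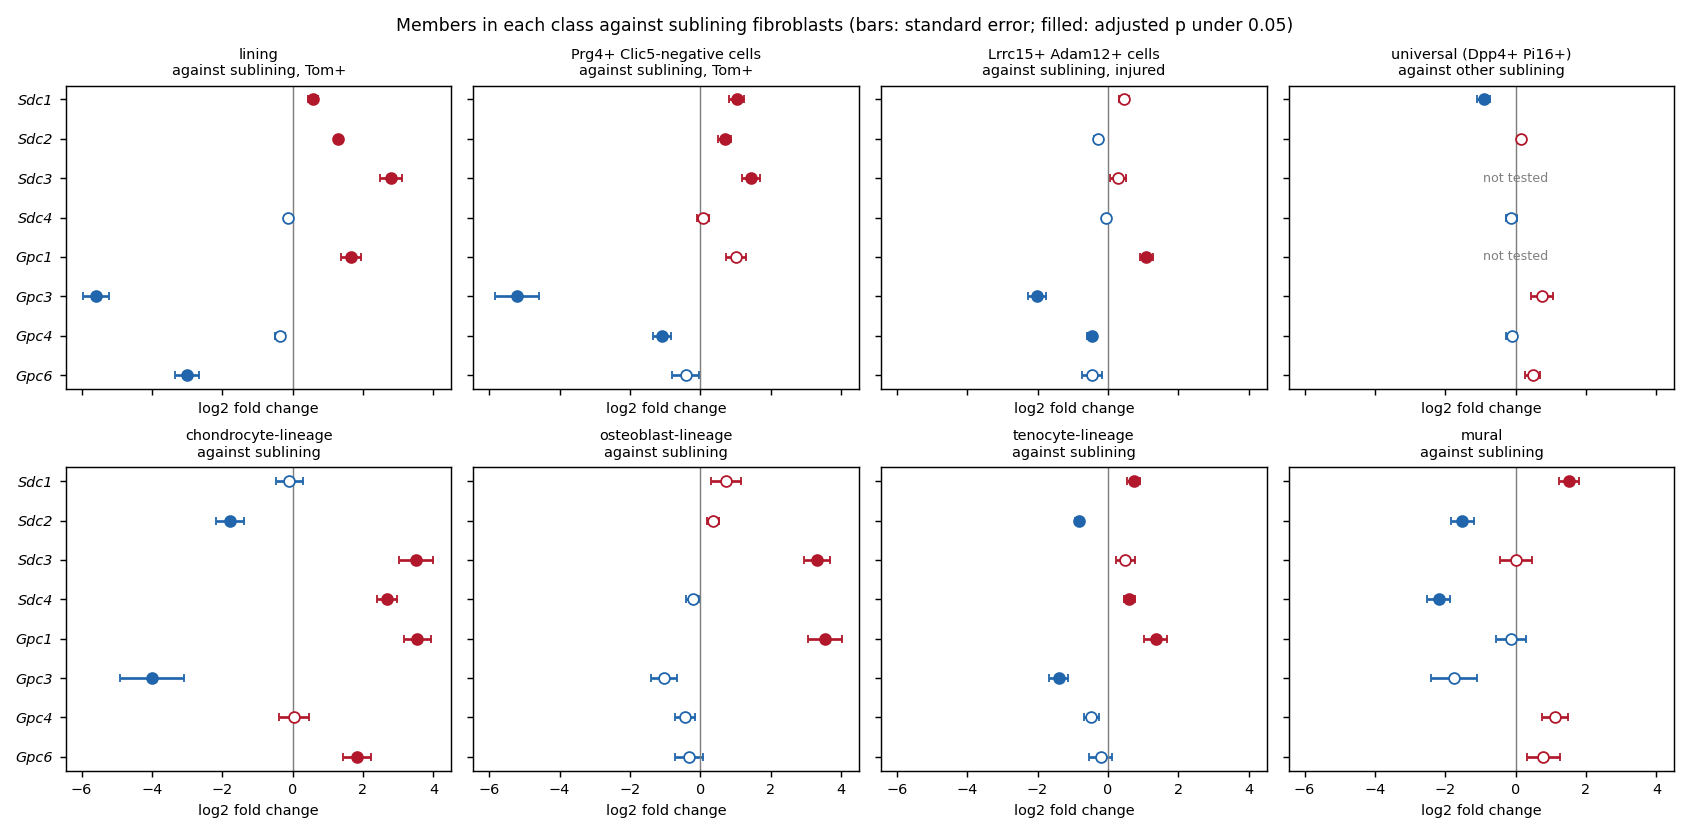
Fitted log2 fold change (edgeR, error bars show the SE) of each tested member in each class against sublining fibroblasts, and in universal against other sublining fibroblasts; filled points passed an adjusted p of 0.05. The lining points of *Gpc3* and *Gpc6* lie at -5.59 and -3.01, and the osteoblast-lineage and chondrocyte-lineage points of *Sdc3* and *Gpc1* lie between 3.30 and 3.54.

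The other classes were compared with the same sublining sums, so these comparisons share samples and each is given for itself. *Prg4*+ *Clic5*- cells were compared with sublining in the 5 Tom+ libraries with enough cells. *Sdc1*, *Sdc2* and *Sdc3* were higher (log2 fold changes 1.03, 0.69 and 1.45 with SE 0.20, 0.19 and 0.26 and adjusted p = 0.00609, 0.0393 and 0.0031). *Gpc3* and *Gpc4* were lower, *Gpc3* with 1 UMI against 295 in the sublining (58.4-fold, counting interval 10.4 to 2314, adjusted p = 0.000121) and *Gpc4* by -1.09 (SE 0.26, adjusted p = 0.0206). In the background, 6.2% of 8786 genes were called (1.92% higher and 4.28% lower). The members' median log2 fold change was 0.39 beside 0.01 over all genes, and no gene of the pathway list passed among 28 tested (edgeR). *Gpc1* missed the threshold (1.01, adjusted p = 0.0561) and passed with DESeq2, without the filter on low counts and without Tom+ injured replicate 1 (1.45). The calls of *Gpc3* and *Sdc3* held under every alternative tried. Classes taken from clusters were not among these, because no cluster was named for this class. *Sdc1* was lost without Tom+ injured replicate 2 (adjusted p = 0.0784), and *Sdc2* and *Gpc4* were lost without replicate 2, 3 or 4, with stricter gates or without the library block (adjusted p up to 0.326 and 0.155 over all alternatives), *Sdc2* also with DESeq2 or without the cells of the highest Scrublet (doublet) scores and *Gpc4* without cycling cells.

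*Lrrc15*+ *Adam12*+ cells, the class seen after injury, were compared with the sublining of the 6 injured libraries. *Gpc1* was higher, at 40.9, 40.03, 19.4 and 31.5 CPM in the 4 Tom+ libraries, then 51.5 and 62.9 in both Tom-GFP+ ones, against 29.96, 21.3, 10.8 and 9.70 and then 18.9 and 16.8 in the sublining. Each library showed the same direction, with a log2 fold change of 1.09 (SE 0.18, adjusted p = 0.00116). *Gpc3* was lower, at 2.64, 9.38, 1.21 and 0 CPM in the 4 Tom+ libraries and at 15.7 and 8.74 in the Tom-GFP+ ones, against 11.8, 17.0, 15.9 and 23.1 and then 64.6 and 40.6.

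That difference in *Gpc3* was -2.01 on the log2 scale (SE 0.25, adjusted p = 0.00013). It ranged from -1.14 with stricter gates, which ended the call (adjusted p = 0.0895), to -3.03 with classes taken from clusters. *Gpc4* was lower by -0.47 (SE 0.13, adjusted p = 0.0287), a call lost without any 1 of 4 libraries (Tom+ injured replicate 1, 2 or 3 or Tom-GFP+ injured replicate 2), with DESeq2, without the library block and with stricter gates (-0.27, adjusted p = 0.503). *Sdc1* (0.46, adjusted p = 0.0529), *Sdc2* (-0.29, 0.0879), *Sdc3* (0.29, 0.429), *Sdc4* (-0.07, 0.616) and *Gpc6* (-0.45, 0.328) did not pass. With classes taken from clusters *Sdc3* was 2.11 (adjusted p = 0.000215) and *Sdc1* 0.78, both called, while *Sdc2* turned to 0.08. Over all genes 2840 were called with clusters, beside 1581 with the gates. *Sdc1* passed in 5 alternatives in all (clusters, DESeq2 size factors, no filter, without Tom+ injured replicate 1 or 3) and *Sdc2* in 3 (no filter, stricter gates, -0.55, and without Tom+ injured replicate 4). The background was 16.4% of 9636 genes (7.57% higher and 8.84% lower), and the medians were -0.18 for the members and -0.01 for all genes. From the pathway list 4 of 27 were higher and 2 lower, among them *Extl2* (-0.68) and *Ext1* (0.34), which act in chain synthesis, and *Col18a1* (0.59).

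Universal fibroblasts, a *Dpp4*+ *Pi16*+ population regarded as a reservoir for other fibroblasts, were compared with the other sublining cells of 8 libraries. *Sdc1* was lower, between 7.80 and 36.6 CPM (median 22.2) against a range of 13.3 to 74.4 (median 55.0) over all 9 libraries of the other cells. The log2 fold change within libraries was -0.91 (SE 0.19, adjusted p = 0.00302), and the same value held its direction but not its call in steady-state libraries alone, where the adjusted p was 0.17. *Gpc3* was 0.75 (SE 0.31, adjusted p = 0.156), with a range over the alternatives of -0.35 to 1.75, and passed in injured libraries alone, without the Tom-GFP+ steady-state library, with DESeq2 and without the filter on low counts. *Gpc4* (-0.11, adjusted p = 0.776) passed only with classes taken from clusters (-0.80, adjusted p = 0.0209). *Sdc3* and *Gpc1* were too low to test, and 1 of 6 tested members was called against 9.68% of 8025 genes (5.15% higher and 4.54% lower). The medians were 0.02 and -0.00 (log2), and 4 of 26 pathway genes were higher, led by *Glce*, the epimerase of heparan sulfate uronic acids (1.37), and 1 was lower (*Col18a1*, -1.02).

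In the skeletal classes *Sdc3* and *Gpc1* rose together. Chondrocyte-lineage cells were compared in 4 libraries (Tom+ steady-state 2, Tom+ injured 3 and 4, Tom-GFP+ injured 1), in that order here. *Sdc4* was 725, 969, 1441 and 1573 CPM against 150, 226, 168 and 146 in their sublining, which did not overlap (log2 fold change 2.68, SE 0.29, adjusted p = 7.94e-06). *Gpc1* was 84.7, 107, 68.3 and 287 CPM against 3.59, 10.8, 9.70 and 18.9 (3.54, SE 0.38, adjusted p = 7.78e-06).

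*Sdc3*, at 151, 126, 75.1 and 57.4 CPM against 3.19, 11.2, 11.9 and 8.34, was higher in cartilage cells by 3.51 (SE 0.49, adjusted p = 8.84e-05). *Gpc6* was also higher (1.84, SE 0.39, adjusted p = 0.00408), while *Sdc2* (-1.78, SE 0.40, adjusted p = 0.00543) and *Gpc3* (1 UMI against 410, 18.0-fold, counting interval 3.22 to 713) were lower. The *Sdc2* call was lost without Tom+ injured replicate 3 (adjusted p = 0.0635) and that of *Gpc6* under a stricter cell filter (1000 genes or more, mitochondrial share up to 5%, adjusted p = 0.0904). With classes taken from clusters 4 members could be tested, of which *Sdc4* and *Sdc2* (-1.04) were called. Over all genes the median log2 fold change was -0.18 in this comparison, and the members' median of 0.94 and their changes are to be read against that shift. Here 6 of 8 members and 15.5% of 8192 genes were called (6.45% higher and 9.05% lower over all genes). Of 26 pathway genes 5 were higher and 6 lower. The largest differences were *Col18a1* (-8.63), *Notum* (6.98), *Ext1* (-4.04) and *Hs3st3a1* (3.85), where a value beyond 4 rests on very few UMIs in 1 of the classes.

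Osteoblast-lineage cells were compared in 5 libraries (Tom+ steady-state 1 and 2, Tom-GFP+ steady state, Tom+ injured 1 and 2). *Sdc3* was 97.8, 76.0, 77.0, 195 and 92.6 CPM against 2.15, 3.19, 6.18, 23.2 and 23.8 in the sublining (log2 fold change 3.30, SE 0.37, adjusted p = 2.46e-05). *Gpc1* was 104, 206, 88.0, 142 and 104 CPM against 5.91, 3.59, 0.773, 29.96 and 21.3 (3.54, SE 0.48, adjusted p = 0.000132), or 2.27 in the 2 injured libraries alone. Both genes were above the sublining in every library, and the other 6 tested members were not called, although *Gpc3* (-1.03, adjusted p = 0.0845) passed without the filter, without Tom+ injured 1 and in steady-state libraries alone, with 12.9% of 8276 genes called (5.59% higher and 7.35% lower). The medians were 0.07 for the members and -0.04 for all genes. From the pathway list 3 of 26 were higher, among them *Cask*, a scaffold that binds syndecan tails (1.12), and 2 were lower, *Sulf2* (-3.11) and *Tgfbr3* (-1.29).

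Tenocyte-lineage cells, compared in 8 libraries, had a mixed profile. *Sdc4* ranged from 151 to 336 CPM (median 245), *Sdc1* from 34.4 to 147 (median 77.6) and *Gpc1* from 12.0 to 87.2 (median 30.8), and all 3 were higher than in the sublining (log2 fold changes 0.60, 0.73 and 1.36 with adjusted p = 0.0225, 0.0211 and 0.0114). *Sdc2* (144 to 272 CPM, median 182) was lower by -0.81 (SE 0.11, adjusted p = 0.000109) and *Gpc3* (0 to 126, median 6.23) by -1.41 (SE 0.26, adjusted p = 0.00159). Thus 5 of 8 members were called against 9.06% of 8889 genes (3.61% higher and 5.44% lower), with medians of 0.14 and -0.02, and 1 of 27 pathway genes passed, *Sdcbp* (syntenin), which binds syndecan tails (-0.54). The *Sdc2* call held under every alternative tried, and the other 4 were lost with stricter gates. In steady-state libraries alone *Gpc1* (3.21), *Gpc3* (-0.69) and *Sdc1* (1.52) did not pass, and in injured ones alone *Sdc1* and *Sdc4* did not. *Sdc1* also lost its call without Tom+ steady-state 2, Tom+ injured 4 or Tom-GFP+ injured 2, and *Sdc4* without Tom+ injured 4 or either Tom-GFP+ injured library. Over all alternatives the adjusted p reached 0.236 for *Gpc1*, 0.379 for *Gpc3*, 0.211 for *Sdc1* and 0.479 for *Sdc4*.

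Mural cells were measured in 3 libraries (Tom+ steady-state 2, Tom+ injured 1 and 2). *Sdc1* was 140, 177 and 255 CPM against 29.5, 71.3 and 63.0 in the sublining (log2 fold change 1.53, SE 0.29, adjusted p = 0.00208). *Sdc2* was 181, 139 and 207 against 470, 388 and 394 (-1.52, SE 0.32, adjusted p = 0.00553), and *Sdc4* was 60.2, 27.2 and 56.7 against 150, 148 and 185 (-2.19, SE 0.33, adjusted p = 0.000344). All 3 were separated without overlap. The mural values of Tom+ steady-state 2 rested on 10 cells, with 7 UMIs of *Sdc1*, 9 of *Sdc2* and 3 of *Sdc4*. The *Sdc1* call was lost without Tom+ injured 2 (adjusted p up to 0.122) and that of *Sdc2* without Tom+ injured 1 (up to 0.0967). *Gpc4*, 40.1, 138 and 76.9 CPM against 53.8, 36.7 and 33.0, was higher in the 2 injured libraries only and did not pass (1.12, adjusted p = 0.0719), though it did in 5 alternatives, among them stricter gates and injured libraries alone. The background was 11.1% of 8923 genes (5.29% higher and 5.85% lower), and the medians were -0.06 for members and for all genes. *Col18a1* (3.66) and *Agrn*, agrin (2.22), were the 2 pathway genes that were higher of 27, and *Sulf2* (-3.52) and *Tgfbr3* (-2.07) were among 3 that were lower.

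The second question was what joint surface injury changed in the sublining fibroblasts of the *Gdf5* lineage. After injury *Sdc1*, *Sdc3* and *Gpc1* were higher and *Gpc3* was lower in Tom+ sublining cells. *Sdc3* went from 2.15 and 3.19 CPM in the 2 steady-state libraries to 23.2, 23.8, 11.2 and 11.9 in the 4 injured ones, so that the lowest injured library was above both steady-state libraries. The group means were 2.67 ± 0.73 (SD, n = 2) and 17.5 ± 6.88 (n = 4), a log2 fold change of 2.64 (SE 0.47, adjusted p = 0.00752).

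*Gpc1* went from 5.91 and 3.59 to 29.96, 21.3, 10.8 and 9.70 CPM (4.75 ± 1.64 and 17.9 ± 9.58), with no overlap and a log2 fold change of 1.92 (SE 0.52, adjusted p = 0.0378). *Sdc1* went from 19.3 and 29.5 to 71.3, 63.0, 58.1 and 47.4 CPM (24.4 ± 7.18 and 59.96 ± 10.0). It was likewise separated, by 1.27 on the log2 scale (SE 0.24, adjusted p = 0.00963). *Gpc3* moved the other way, from 36.5 and 54.2 to 11.8, 17.0, 15.9 and 23.1 CPM (45.3 ± 12.5 and 17.0 ± 4.68), a log2 fold change of -1.43 (SE 0.29, adjusted p = 0.0127).

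The remaining members did not pass. *Sdc2* was at 578 and 470 CPM before and at 388, 394, 370 and 330 after injury (-0.52, SE 0.19, adjusted p = 0.112), groups that did not overlap. *Gpc4* (-0.47, adjusted p = 0.164), *Gpc6* (-0.64, adjusted p = 0.281) and *Sdc4* (0.33, adjusted p = 0.34) overlapped or nearly met between the states. Thus 3 of 8 tested members were higher and 1 lower, where 11.5% of 12003 genes were called (4.47% higher and 7.08% lower). The members' median log2 fold change was -0.07, beside 0.01 over all genes.

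**Figure D4:**
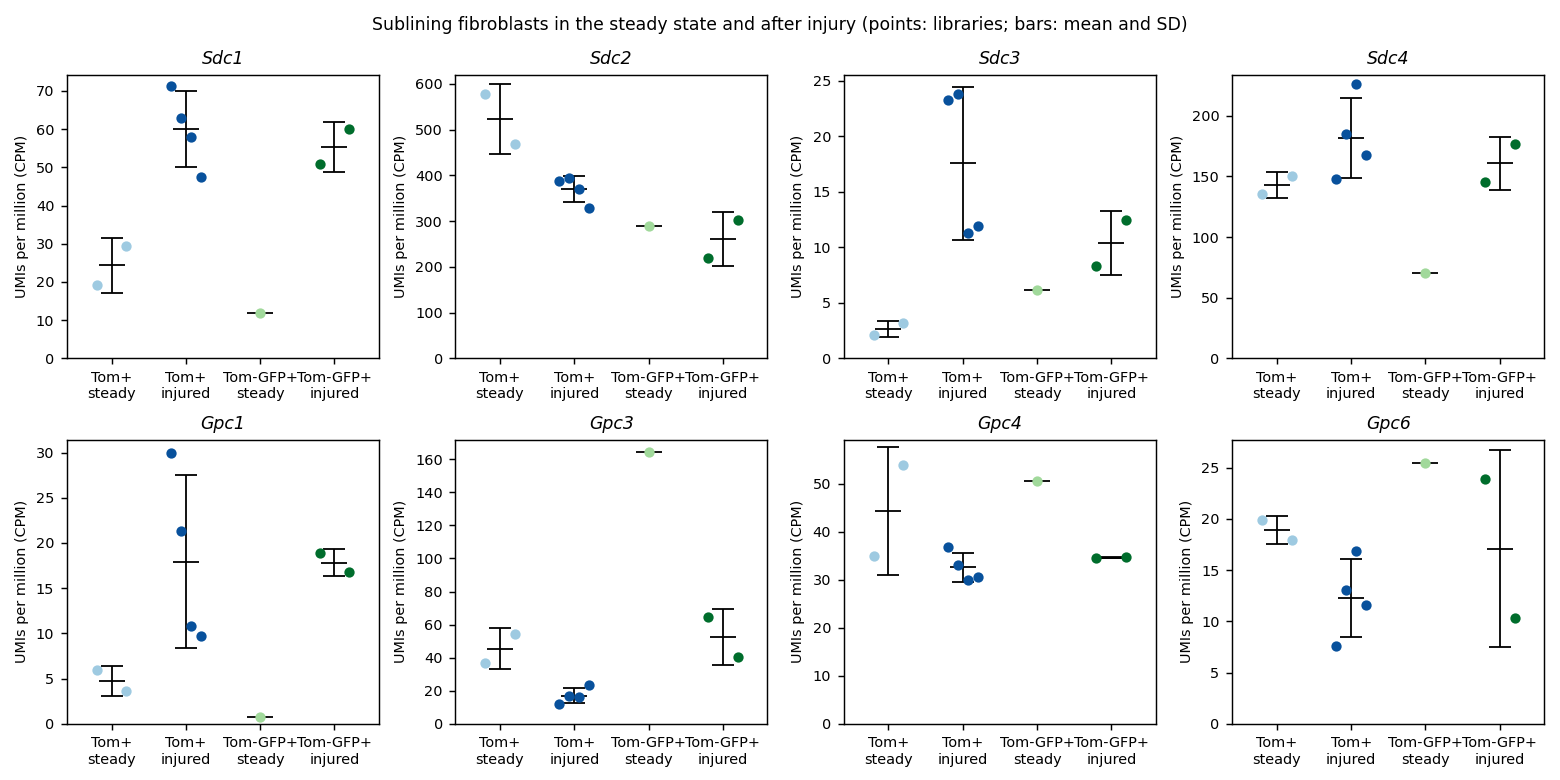
Level (CPM) of the 8 tested members in sublining fibroblasts, 1 point per library, for Tom+ and Tom-GFP+ cells at steady state and 6 days after injury. Horizontal bars are group means. *Sdc1* and *Gpc1* lie higher and *Gpc3* lower in the injured libraries of both sorts, and *Sdc3* higher in the Tom+ ones; in Tom-GFP+ cells *Sdc3* was not called (0.72) and turned to -0.46 with classes taken from clusters.

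With only 2 steady-state libraries these calls were easily lost, while the directions stayed. *Sdc3* lost its call without either steady-state library, *Sdc1* without Tom+ steady-state 1 (adjusted p = 0.108) and *Gpc3* without Tom+ steady-state 2 (adjusted p = 0.132). With classes taken from clusters instead of gates all 3 were lost, at log2 fold changes of 1.43 for *Sdc3* (adjusted p = 0.111), 0.98 for *Sdc1* and -0.97 for *Gpc3*, and *Gpc1* was the 1 member called. With the gates, *Gpc1* lost its call in 7 alternatives, including the removal of either steady-state library, of Tom+ injured 2, of either Tom-GFP+ injured library and of the universal cells (adjusted p up to 0.273). Stricter gates kept all 4 calls. Tom+ injured replicate 1 was the only injured library with the older format of the gene list. A term for the format, or the older-format libraries alone, therefore left the Tom+ injury contrast to that library against the steady state. These 2 fits rest on the same library and cannot separate format from injury.

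Several other measures moved with injury in the same cells. The summed level of the 6 lining markers was 457 and 492 CPM at steady state and 2446, 2076, 759 and 504 in the 4 injured libraries, and *Sdc3* and *Gpc1*, which the lining expresses, were highest in the first and second of these. With those 2 libraries left out together, an alternative chosen after seeing the data, *Sdc3* was 2.08 (adjusted p = 0.0118), *Sdc1* 1.10 (0.0191) and *Gpc3* -1.20 (0.0286), and *Gpc1* 1.14 (0.0801) no longer passed. The part of the lining markers in the remaining difference was not tested. The 4 *Lrrc15*+ *Adam12*+ markers summed to 19.1 and 23.1 CPM at steady state and 249 to 368 after injury, the 7 mural markers to 12.9 to 19.9 and 30.1 to 157, the 6 cycling markers to 0.537 to 1.20 and 8.21 to 206, and the share of universal cells fell from 14.8 to 17.0% to 6.11 to 13.9%. Pseudogenes took 2.17 to 3.42% of UMIs at steady state and 0.545 to 1.08% after injury, and the median depth was 8550 to 8880 and 10700 to 16500 UMIs per cell. All 4 calls were kept without cycling cells and with *Lrrc15*+ *Adam12*+ cells counted as sublining, and all but that of *Gpc1* without universal cells. The part of the mural markers, pseudogenes and depth in the summed levels was not tested.

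By cells, the share of Tom+ sublining cells with a UMI of *Sdc3* was 1.81% of 496 at steady state and 16.2% of 702 after injury, or 0.889% and 6.4% with cells thinned to 5000 UMIs (46 and 15 cells left out). *Sdc1* went from 19.4% to 44.9% (thinned 9.78% and 24.5%), *Gpc1* from 3.63% to 18.2% (3.33% and 7.71%) and *Gpc3* from 20.6% to 13.5% (14% and 6.99%). In immune cells *Gpc1* was found in 4.63% of 108 cells before and in 0% of 77 after thinning. Its steady-state share in the sublining was no higher than theirs before thinning. However, all immune cells with *Gpc1* came from injured libraries, Tom+ injured 3 and Tom-GFP+ injured 1. Tom+ steady-state 1 and the Tom-GFP+ steady-state library held 3 immune cells each, none with *Gpc1*. The level of free *Gpc1* RNA at steady state could therefore not be measured. After thinning, 77 immune cells were too few to tell the shares apart. *Sdc3* has no such floor here, because 31.5% of immune cells carried it.

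Tom-GFP+ sublining fibroblasts were compared between 1 steady-state and 2 injured libraries, and the lone library was assumed to vary like the other groups. *Sdc1* was at 12.0 CPM in the steady-state library and at 50.8 and 60.1 after injury (log2 fold change 2.20, SE 0.37, adjusted p = 0.022). *Gpc1* had 2 UMIs at steady state (0.773 CPM) and 83 after injury (18.9 and 16.8 CPM), a ratio of summed levels of 23.3 with a counting interval of 6.26 to 196 (adjusted p = 0.0424). *Gpc3* was at 164 CPM at steady state and at 64.6 and 40.6 after injury (-1.64, SE 0.37, adjusted p = 0.0449).

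*Sdc4* was at 70.3 CPM at steady state and at 146 and 176 after injury, and missed the threshold (1.19, SE 0.31, adjusted p = 0.0781), which it passed without the filter, without Tom+ injured 1 and without both libraries of high lining markers (lowest adjusted p = 0.0155). *Sdc3* was at 6.18 CPM and then 8.34 and 12.5 (0.72, SE 0.58, adjusted p = 0.563), with the sign turned under clusters (-0.46), and *Sdc2* (-0.15), *Gpc4* (-0.56) and *Gpc6* (-0.54) did not pass either. In total 2 members were higher and 1 lower of 8, against 2.79% of 12003 genes (0.65% higher and 2.14% lower), and the medians were 0.28 for the members and -0.00 for all genes. All 3 calls were lost without either of the Tom-GFP+ injured libraries. *Gpc1* and *Gpc3* were also lost with stricter gates, without the highest Scrublet scores, when *Lrrc15*+ *Adam12*+ cells were counted as sublining, without either Tom+ steady-state library or Tom+ injured 2, and with classes taken from clusters (2.66 and -0.89), *Gpc1* without cycling cells, and *Gpc3* with the stricter cell filter or without Tom+ injured 3. Over all alternatives the adjusted p reached 0.0871 for *Sdc1*, 0.168 for *Gpc1* and 0.373 for *Gpc3*.

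In these cells lining markers summed to 229 CPM at steady state and to 405 and 744 after injury, and erythroid markers reached 90.9 CPM in the second injured library. *Lrrc15*+ *Adam12*+ markers summed to 18.9 CPM at steady state and to 188 to 234 after injury. The share of universal cells, which carried less *Sdc1*, was 29.5% and then 17.7 to 21.6%. Pseudogenes took 3.16% and then 0.575 to 0.601% of UMIs, at median depths of 8200 and 10300 to 12800. The steady-state library had the older gene list format and both injured ones the newer, so format cannot be told apart from injury here. The part of lining and erythroid markers, pseudogenes and depth was not tested. Whether injury acted differently in the 2 lineages was tested by the interaction term, which no gene passed (edgeR, 0 of 12003, with 262 at an unadjusted p under 0.05 and 2 called by DESeq2). For the members the interaction was largest for *Gpc1* (-2.52, SE 1.22) and *Sdc3* (1.92, SE 0.77), both with an adjusted p of 1. The difference between the lineages in the response of any member was thus not resolved at this number of libraries.

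Between the lineages after injury, Tom+ against Tom-GFP+, no member passed (edgeR, where 3 genes or 0.025% of 12003 were called, 0.00833% higher and 0.0167% lower, 543 had an unadjusted p under 0.05 and DESeq2 called 22). *Gpc3* had the widest gap, at 11.8, 17.0, 15.9 and 23.1 CPM in the 4 Tom+ and 64.6 and 40.6 in the 2 Tom-GFP+ libraries, which did not overlap. Its log2 fold change was -1.58 (SE 0.29, adjusted p = 0.221), and it was called by DESeq2 and when no filter on low counts was used. At steady state, where 1 Tom-GFP+ library allows a description only, *Gpc3* was 36.5 and 54.2 CPM in the Tom+ and 164 in the Tom-GFP+ library. *Sdc2* leaned the other way after injury, with 388, 394, 370 and 330 CPM in the 4 Tom+ libraries, against 219 and 302 in the other sort (0.56, adjusted p = 0.904).

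In lining fibroblasts of the Tom+ libraries, no member passed between steady state and injury (edgeR, 6 tested, 2.28% of 10120 genes called, 0.682% higher and 1.6% lower, 2002 genes with an unadjusted p under 0.05 and 407 called by DESeq2). *Sdc2* came nearest, at 1695 and 1398 CPM at steady state and at 940, 888, 966 and 1225 after injury, without overlap (-0.54, SE 0.18, adjusted p = 0.139). *Sdc3*, 97.7 and 116 CPM before and 75.9 to 118 after, overlapped (-0.13, adjusted p = 0.808), as did *Gpc1* (0.08, adjusted p = 0.945). The other values were 0.61 for *Sdc1* (adjusted p = 0.315), 0.10 for *Sdc4* and -0.34 for *Gpc4*. The members' median was -0.02, beside 0.01 over all genes. With gene list format in the fit, the injury contrast rested on Tom+ injured replicate 1 against the steady-state libraries. That fit cannot separate format from injury. The steady-state lining sums rested on 19 and 31 cells and the injured ones on 104 to 183.

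Among the genes of the wider heparan sulfate pathway list, 5 of 30 tested were higher in Tom+ sublining cells after injury and 1 was lower. Of all genes, 11.5% were called (4.47% higher and 7.08% lower). The higher pathway genes included *Mmp14*, a membrane metalloproteinase that can shed syndecans (1.48), *Col18a1* (1.40) and the chain polymerase subunit *Ext1* (1.04). The lower one was the 3-O-sulfotransferase *Hs3st1* (-2.31, adjusted p = 0.00159). In Tom-GFP+ cells, where 2.79% of all genes were called, none was higher and 2 were lower, *Hs3st1* (-1.91, adjusted p = 0.0286) and *Glce* (-1.24, adjusted p = 0.0448). No pathway gene passed between the lineages after injury or in the lining (30 and 28 tested).

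The genes whose log2(CPM + 1) ran most like each member were sought among 7996 genes. Correlations were taken over 43 sums of 9 classes by library, each with at least 20 cells. No chondrocyte-lineage sum reached 20 cells, so the class with the highest *Sdc4*, *Gpc1* and *Gpc6* was left out. These sums share libraries, depth and the gating, and the correlations are given as descriptions. For *Sdc1* these were *Tpm2* (r = 0.85), *Ednra* and *Trabd2b*, for *Sdc2* *Epdr1* (0.95), *Fermt2* and *Mageh1*, for *Sdc3* *Tmem2* (0.83), *Cd82* and *Rab31*, and for *Sdc4* *Slc30a6* (0.73), *Xbp1* and *Retreg1*. For *Gpc1* they were *Tnc* (0.84), which is among the markers of the *Lrrc15*+ *Adam12*+ class, *Matn2* and *Cemip*, for *Gpc3* *Abca8a* (0.86), *Lama2* and *Slco2a1*, for *Gpc4* *Kctd17* (0.86), *Nckap1* and *Lhfp*, and for *Gpc6* *C1s1* (0.81), *Ptpn13* and *Apbb2*. Among the members, *Sdc1* and *Gpc1* ran together (0.73), as did *Gpc3* and *Gpc6* (0.69), whereas *Sdc3* and *Gpc3* ran in opposite directions (-0.72).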

How the data were processed

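The deposited matrices held UMI counts per gene and cell barcode, which the authors made with Cell Ranger (3.0.2 in the header of the newer-format files) on GRCm38.p6 from 10x 5′ libraries. The values were used as raw counts, unnormalized. The 4788 of 5161 barcodes with 500 or more genes, 1000 or more UMIs and no more than 10% of UMIs from mitochondrial genes entered. Classes were gated on fixed markers, and Scrublet scores (47 cells called) were used only in an alternative. Counts were summed per class and library where at least 10 cells were present and tested in edgeR 4.0.16 (R 4.3.3; TMM, filterByExpr, quasi-likelihood test, Benjamini-Hochberg, threshold 0.05). The 4 injury groups shared 1 fit, and class comparisons had the library as a block. The tests were checked on simulated data. Alternatives included DESeq2 1.42.0, its size factors, no filter, stricter cell filters, clusters in place of gates (scanpy 1.11.5) and leaving out each library. All 9 members, and pathway genes only where called (at most 4 per comparison), are named. The members and lists were chosen with earlier results of these data known. Libraries of 1 group differed beyond sampling noise (chi-square per degree of freedom 7.79 to 24.9). Library totals are given with the results and limit precision.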

Additional observations from a re-analysis of the deposited data

Results flagged for a closer look

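In Tom+ lining fibroblasts after injury, *Sdc1* stood at 120.7 CPM in replicate 2 (358 UMIs), while the other 3 libraries lay between 79.0 and 84.7 CPM. The gap was 0.865 of the range. It was the only one of 36 groups examined, where chance gives about 1 in 20, that is 1.8 groups. Immune-gated cells, which entered no comparison, carried *Sdc3* at a mean of 48.0 CPM (0 to 90.3 CPM, 49 UMIs, 3 libraries) and *Sdc4* at a mean of 71.6 CPM (0 to 112 CPM, 77 UMIs), whereas *Sdc2* had 4 UMIs there.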

How the results depend on the processing

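Of 1740 fold changes recomputed under the alternatives, 1625 stayed on their side of the threshold, 81 lost their call and 34 gained one. No called value reversed, while 71 of the 1625, none of them called, changed sign. Leaving out 1 library moved the number of members called to 1 to 4 for injury in Tom+ sublining, 0 to 4 in Tom-GFP+ sublining, 2 to 6 for *Prg4*+ *Clic5*- cells, 2 to 4 for *Lrrc15*+ *Adam12*+ cells, 1 to 2 for universal cells, 5 to 6 for chondrocyte-lineage cells, 2 to 3 for osteoblast-lineage cells, 3 to 5 for tenocyte-lineage cells and 2 to 4 for mural cells. With classes taken from clusters, the numbers were 1 in Tom+ and 1 in Tom-GFP+ injury. They were 5 in *Lrrc15*+ *Adam12*+ cells, 2 in universal and 2 in chondrocyte-lineage cells, where 4 members could be tested. Over all genes, clusters raised the calls in *Lrrc15*+ *Adam12*+ cells from 1581 to 2840. A cluster was named by its most common gate, which had to hold at least 40% of its cells. No cluster was named *Prg4*+ *Clic5*- or osteoblast-lineage, so clusters were not tried for these classes. Stricter gates, 1 marker more in each, gave 1 in Tom-GFP+ injury, 3 in *Prg4*+ *Clic5*- cells and 1 in tenocyte-lineage cells. In Tom-GFP+ injury 1 member was called with *Lrrc15*+ *Adam12*+ cells counted as sublining, and 1 without the highest 5% of Scrublet scores. DESeq2 called 1 member between the lineages and 2 in universal cells. Without the filter on low counts, 1 was called between the lineages, 2 in universal cells and 5 in *Lrrc15*+ *Adam12*+ cells. Without the library block 3 were called in *Prg4*+ *Clic5*- cells. In injured libraries alone the numbers were 2 (universal) and 3 (tenocyte-lineage), and in steady-state libraries alone 0 and 2, with fewer samples in each. The Tom-GFP+ mice are described as matched, without saying to which Tom+ library, and the replicate numbers were not shown to pair the libraries (correlations of deviations 0.0524, 0.099, 0.162 and 0.0894). With the replicate block, 1 member (*Sdc2*) was called in the lining after injury and no block was possible for Tom-GFP+ injury. Apart from the causes stated, the cause was not tested. Calls over all genes fell to 293 without Tom+ steady-state 1 (Tom+ injury, from 1386), 27 without Tom-GFP+ injured 2 (Tom-GFP+ injury, from 335) and 11 without Tom+ steady-state 1 (lining injury, from 231), with 20 there under the format term. They reached 2319 without the filter for Tom+ injury and 1323 for Tom-GFP+ injury, where stricter gates left 51. Without the filter they moved from 3 to 263 between lineages, 0 to 72 for the interaction, 231 to 1091 in the lining, 545 to 1009 in *Prg4*+ *Clic5*-, 777 to 1242 in universal, 1071 to 1844 in osteoblast-lineage and 805 to 1387 in tenocyte-lineage cells. Stricter gates left 437 of 1581 in *Lrrc15*+ *Adam12*+ cells and gave 1602, from 994, in mural cells. In *Lrrc15*+ *Adam12*+ cells 2072 were called without the filter. Depth limited *Gpc2* (15 UMIs), *Gpc3* in the lining (4 UMIs) and steady-state *Gpc1* in Tom-GFP+ cells (2 UMIs).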
